A study of Homo sapiens with 4 samples.

Results

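RNA of the human hepatocellular carcinoma lines Huh7 and PLC (PLC/PRF/5) was sequenced after 48 h in 5 mM or 25 mM glucose, and the 45 genes described here build ribosomes or transcribe ribosomal RNA with RNA polymerase I. They were chosen by name, and all 45 had a row among the 59652 genes used. Both lines were wild type and were kept in the same glucose-free DMEM with fetal bovine serum and antibiotics, to which glucose was added. The 4 libraries held 21376239 and 30085303 counted reads for Huh7 cells at 5 and 25 mM and 30279716 and 16049686 for PLC cells at 5 and 25 mM. Each condition had 1 library, so no spread between cultures was measured and the ratio within a line has no replicate check. The 95% intervals given with ratios cover counting error only.

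Ribosome production starts in the nucleolus, where RNA polymerase I transcribes one long precursor of the 18S, 5.8S and 28S ribosomal RNAs. Small nucleolar RNPs then modify the precursor, box C/D particles by methylation of riboses and box H/ACA particles by pseudouridylation. Assembly factors fold and cleave it into the small and the large subunit. The pathway uses much of the energy of a growing cell, and MYC is the textbook activator of many of its genes through the E-box CACGTG. Ribosomal RNA itself was removed before sequencing, so the levels here are those of the messenger RNAs.

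The liver identity of the lines was checked first. All 11 hepatocyte markers were detected in Huh7 cells, with ALB (albumin) at 2017 and 2039 FPKM and AFP (alpha-fetoprotein) at 1256 and 1434 FPKM (FPKM here is reads divided by exon length and library total, on the usual scale). PLC cells had less ALB (52.5 and 72.3 FPKM), and TTR (transthyretin) stood at 0.061 FPKM at 5 mM and had no read at 25 mM. In PLC cells AFP was 306 FPKM at 5 mM and 1011 FPKM at 25 mM, and SERPINA1 was 22.1 and 51.8 FPKM. Of the 8 leukocyte, endothelial and fibroblast markers, CD3E had no read in any library, and the highest level was 4.84 FPKM, of CD14 in Huh7 cells at 25 mM. The part of these marker levels in the results was not tested.

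In Huh7 cells the members differed little between the glucose concentrations. None of the 44 members that passed the FPKM filter (over 0.5 in at least 1 library of the line) had a 25/5 mM ratio over 1.5 or under 0.67, while 14.1% of all genes that passed it were higher by this rule and 13.7% were lower. Among genes with FPKM over 5 in both Huh7 libraries, 3.17% were lower. Of all 45 members, 44 had a ratio between 0.8 and its inverse, as did 78.2% of the genes with FPKM over 5 in both Huh7 libraries. The median ratio was 0.978 (log2 -0.03), beside a median log2 ratio of 0.04 for genes with FPKM over 5 in all 4 libraries. The interval lay below 1 for 14 members and above 1 for 9, where 25.6% and 38.2% of the genes with FPKM over 5 did so.

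In PLC cells the members were shifted to lower levels at 25 mM. Under the same rule 11 of 44 members (25%) were lower and 0 were higher, beside 17% of all genes lower and 26.2% higher. Among genes with FPKM over 5 in both PLC libraries, as 44 of the 45 members had in all 4 libraries, 9.36% were lower. The median ratio of the 45 members was 0.797 (log2 -0.33), beside a median log2 ratio of 0.02 for genes with FPKM over 5 in all 4 libraries. The interval lay below 1 for 32 members and above 1 for 5, beside 37.2% and 39.6% of the genes with FPKM over 5. The ratio was smaller in PLC than in Huh7 cells for 35 of 45 members, beside 46.5% of all genes that passed the FPKM filter in both lines and 2830 of the 5543 genes with FPKM over 5 in all 4 libraries. TMM scaling moved the PLC log2 ratios by about -0.12 and the Huh7 ones by about -0.04, and by less for genes with very low FPKM such as NOP2. With it 36.4% of the 44 members were lower in PLC cells, beside 21% of all genes lower and 22.1% higher, and 13.7% lower among genes with FPKM over 5. Whether the lines differed in their response cannot be tested with 1 library per condition, and fewer cells that express a gene cannot be told apart from less RNA per cell in bulk RNA.

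**Figure D1:**
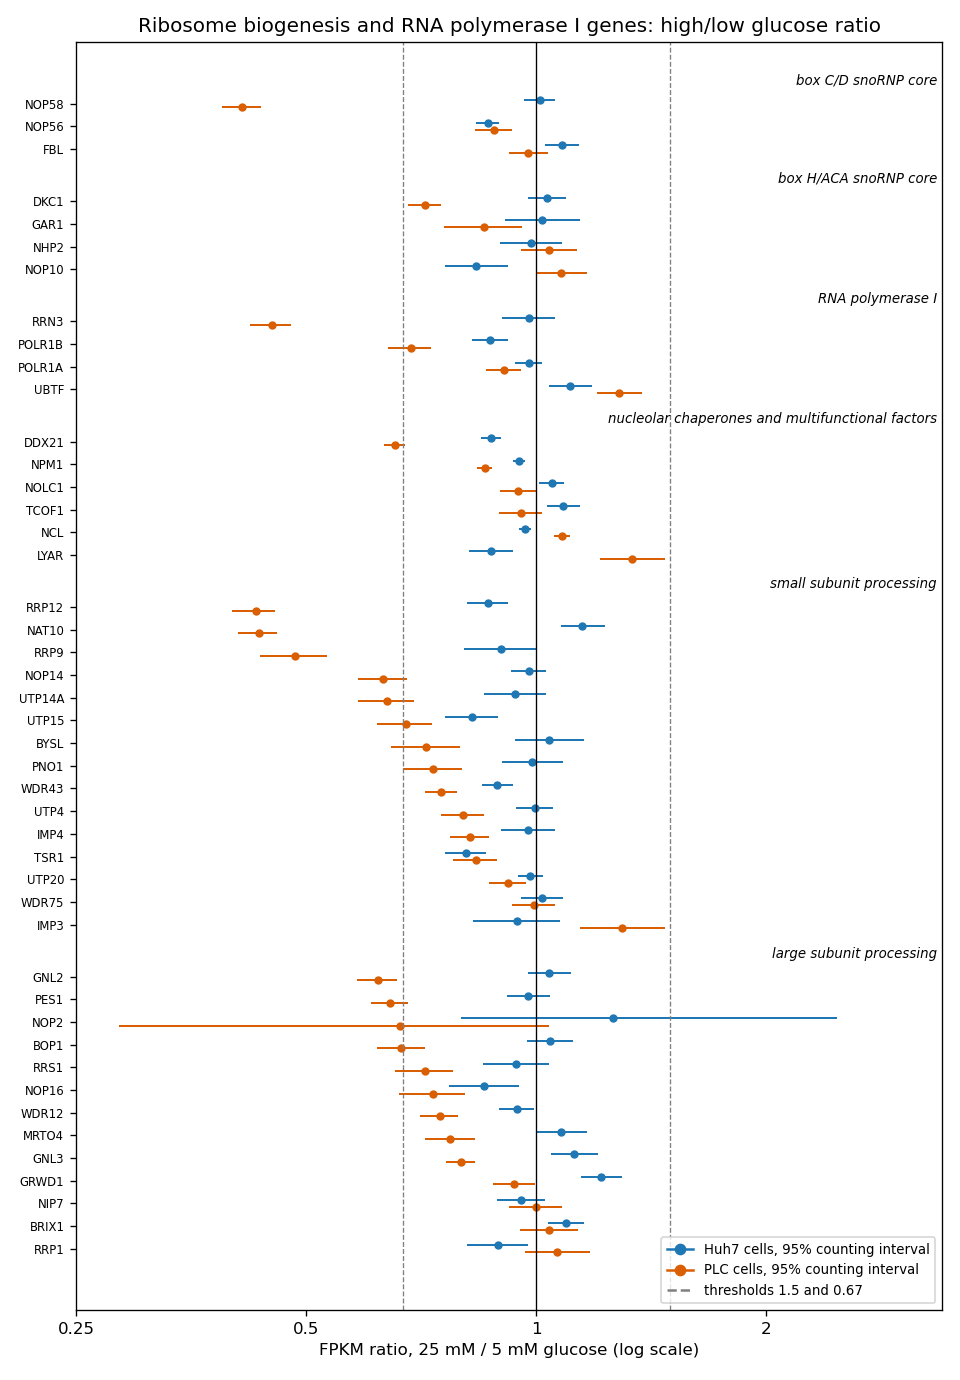
FPKM ratio of 25 to 5 mM glucose (log axis) of each of the 45 members in Huh7 cells (blue) and PLC cells (orange), grouped by role, with 95% counting intervals as bars and the thresholds 1.5 and 0.67 as dashed lines. The blue points lie close to 1, from 0.809 (TSR1) to 1.26 (NOP2), whereas 11 orange points with FPKM over 0.5 lie left of 0.67, NOP58 farthest at 0.413.

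**Figure D2:**
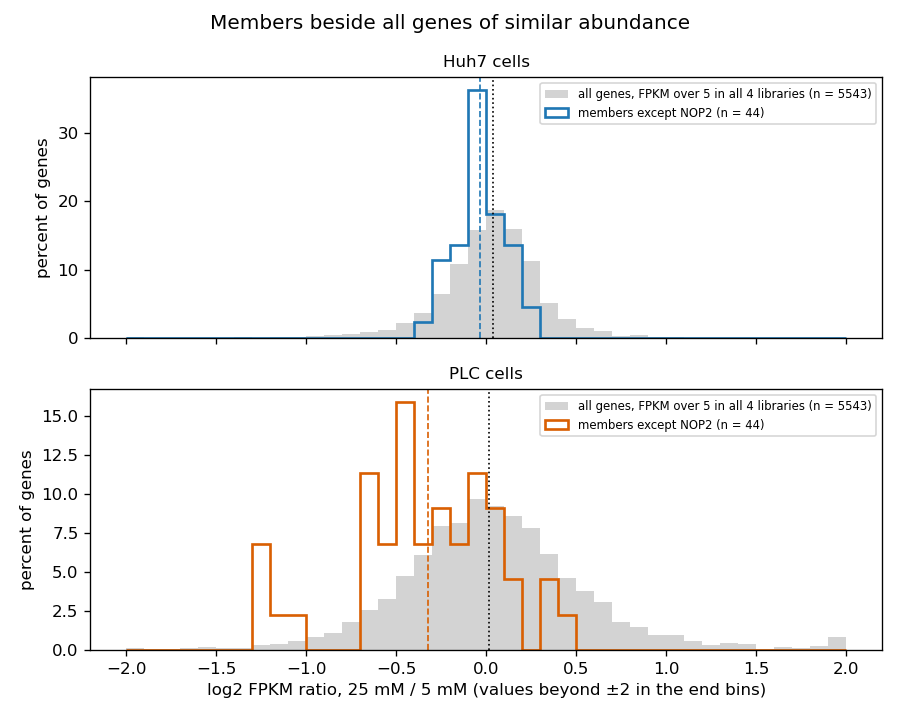
Share of genes (percent) by log2 ratio of 25 to 5 mM in bins of 0.1, for all genes with FPKM over 5 in all 4 libraries (grey, 5543 genes) and for the 44 members other than NOP2 (outline), in Huh7 cells (top) and PLC cells (bottom), with medians as dotted and dashed lines. The outline sits inside the grey peak in Huh7 cells and extends to its left in PLC cells, with 5 members below a ratio of 0.5.

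Among the PLC ratios 5 stood apart from the rest below 0.5, and these genes act at different steps. NOP58, a core protein of box C/D particles (chr2:202265736-202303661, + strand, hg38), had 3417, 4864, 6858 and 1497 reads in Huh7 cells at 5 and 25 mM and in PLC cells at 5 and 25 mM, in that order, or 48.8, 49.4, 69.2 and 28.5 FPKM. Its ratio was 1.01 (0.968 to 1.06) in Huh7 and 0.413 (0.389 to 0.436) in PLC cells. RRP12, a factor for maturation and export of pre-ribosomes (chr10:97356358-97426076, - strand, hg38), had 2008, 2442, 5675 and 1285 reads (11.01, 9.52, 21.97 and 9.39 FPKM). The PLC library at 5 mM was the high one, and the other 3 lay near one another, with ratios of 0.865 (0.814 to 0.917) in Huh7 and 0.4298 (0.402 to 0.454) in PLC cells. NAT10, the acetyltransferase of 18S ribosomal RNA (chr11:34105617-34147670, + strand, hg38), had 1569, 2541, 7005 and 1605 reads (14.04, 16.2, 44.3 and 19.1 FPKM). Here the lines went in opposite directions, with 1.15 (1.08 to 1.23) in Huh7 and 0.434 (0.409 to 0.456) in PLC cells. RRN3 (TIF-IA), which brings RNA polymerase I to its promoter (chr16:15060033-15094311, - strand, hg38), had 1165, 1603, 5845 and 1393 reads (13.2, 12.9, 46.6 and 20.97 FPKM) and ratios of 0.978 (0.906 to 1.06) and 0.451 (0.424 to 0.477). RRP9, a protein of the U3 particle (chr3:51933429-51941904, - strand, hg38), had 607, 768, 2026 and 518 reads (18.4, 16.6, 43.4 and 20.9 FPKM) and ratios of 0.8995 (0.807 to 1.002) and 0.484 (0.437 to 0.531). For NAT10, RRN3 and RRP9 both PLC libraries lay above both Huh7 libraries, whereas for NOP58 and RRP12 the PLC library at 25 mM was the lowest of the 4. Reads of the 4 named RRN3 pseudogenes amounted to at most 21% of the RRN3 reads of a library, so the split between RRN3 and its copies is uncertain.

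Under 0.67 in PLC cells lay 6 more members, between 0.621 and 0.666. GNL2, a GTPase of large subunit assembly, had 1684, 2469, 4764 and 1564 reads (13.7, 14.3, 27.4 and 16.96 FPKM) and a PLC ratio of 0.621 (0.585 to 0.656). NOP14 and UTP14A belong to the small subunit processome. NOP14 had 2629, 3619, 3195 and 1067 reads (34.6, 33.8, 29.6 and 18.7 FPKM, PLC ratio 0.631 (0.587 to 0.675)). UTP14A had 859, 1135, 2296 and 775 reads (9.83, 9.23, 18.6 and 11.8 FPKM, PLC ratio 0.639 (0.586 to 0.691)). PES1 and BOP1 form the PeBoW complex of large subunit processing with WDR12. All 3 of its genes had a PLC interval below 1, as 32 of the 45 members did, so this does not set the complex apart. PES1 had 1782, 2449, 5551 and 1894 reads (18.4, 17.98, 40.5 and 26.1 FPKM, PLC ratio 0.645 (0.611 to 0.678)). BOP1 had 1480, 2173, 3117 and 1099 reads (18.02, 18.8, 26.8 and 17.8 FPKM, PLC ratio 0.666 (0.6204 to 0.713)), and WDR12 had a PLC ratio of 0.748 (0.708 to 0.788). DDX21, an RNA helicase, had the most reads of the 6, 9589, 11801, 18169 and 6287 (90.2, 78.9, 121 and 78.8 FPKM), and a PLC ratio of 0.653 (0.634 to 0.672). The intervals of all of these but GNL2 reach past 0.67. In Huh7 cells the same 6 genes had ratios from 0.875 (DDX21) to 1.04 (BOP1). At 5 mM, 10 of the 11 members under the threshold had a higher FPKM in PLC than in Huh7 cells, all but NOP14, and at 25 mM 6 of the 11 did. Of all 45 members 31 had the higher FPKM in PLC cells at 5 mM and 24 did at 25 mM. The matching shares of all genes are not given here. The PLC level at 5 mM is part of the ratio by which the 11 were picked out.

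**Figure D3:**
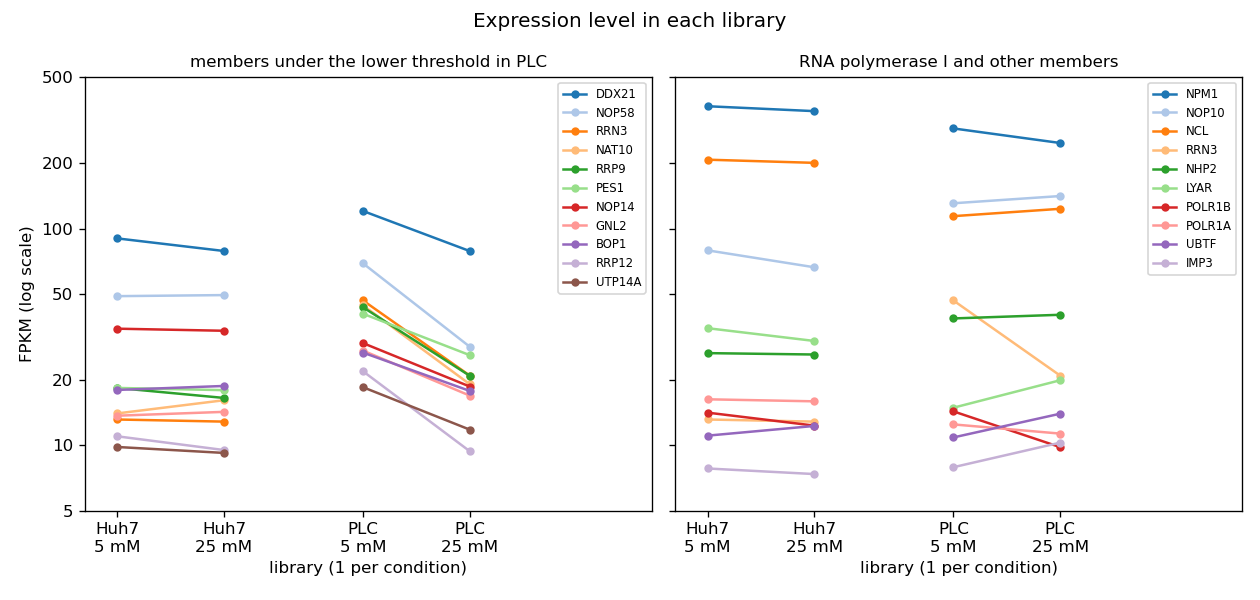
FPKM (log axis) in the 4 libraries, joined within each line, for the 11 members with a PLC ratio under 0.67 (left) and for the RNA polymerase I members with 6 others (right). On the left the Huh7 lines run nearly level and the PLC lines slope down from 5 to 25 mM, and on the right UBTF, LYAR and IMP3 slope up in PLC cells.

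The PLC ratios of the RNA polymerase I members lay on both sides of 1. POLR1A, the largest subunit, had 4716, 6495, 5116 and 2459 reads (16.3, 15.97, 12.5 and 11.3 FPKM), with ratios of 0.979 (0.942 to 1.02) in Huh7 and 0.908 (0.864 to 0.952) in PLC cells. POLR1B, the second largest subunit, had 2724, 3339, 3911 and 1417 reads (14.2, 12.3, 14.4 and 9.81 FPKM), with ratios of 0.872 (0.828 to 0.916) and 0.686 (0.643 to 0.727). UBTF, which binds the ribosomal DNA promoter, was higher at 25 mM in both lines, with 1658, 2587, 2304 and 1572 reads (11.1, 12.3, 10.9 and 14.01 FPKM) and ratios of 1.11 (1.04 to 1.18) and 1.28 (1.21 to 1.37). UBTF was the only member whose interval lay above 1 in both lines, and 10 members had an interval below 1 in both. Shares of all genes with intervals on the same side in both lines are not given here. Neither count can therefore be read as particular to the members. Of 10 other RNA polymerase I and SL1 genes measured, 1 was higher and 2 were lower in PLC cells by the thresholds, with a median ratio of 0.917, and 0 passed them in Huh7 cells.

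The cores of the snoRNPs had mostly small differences. FBL (fibrillarin), the methyltransferase of the box C/D particle, had 2786, 4242, 3669 and 1899 reads (60.96, 65.9, 56.7 and 55.3 FPKM), with ratios of 1.08 (1.03 to 1.14) and 0.977 (0.923 to 1.03) in Huh7 and PLC cells. NOP56, the partner of NOP58 in this particle, had 7400, 8999, 4341 and 2024 reads (69.9, 60.4, 28.96 and 25.5 FPKM), with ratios of 0.864 (0.838 to 0.891) and 0.8801 (0.834 to 0.928). NOP58, at 0.413 in PLC cells, thus had the lowest ratio of these 3. SNU13, the further core protein of this particle, is not among the 45 members and was counted with the other small subunit factors, with ratios of 1.09 (1.02 to 1.17) and 0.784 (0.734 to 0.836). Among the box H/ACA proteins, DKC1 (dyskerin), the pseudouridine synthase, had 2217, 3223, 6358 and 2409 reads (24.7, 25.5, 49.96 and 35.7 FPKM), with ratios of 1.03 (0.978 to 1.09) and 0.715 (0.682 to 0.749). Its partner GAR1 had 566, 812, 973 and 440 reads (13.5, 13.7, 16.4 and 13.96 FPKM), with ratios of 1.02 (0.914 to 1.14) and 0.854 (0.761 to 0.956). NHP2 had 817, 1133, 1673 and 922 reads (26.7, 26.3, 38.5 and 40.1 FPKM), with ratios of 0.985 (0.8998 to 1.08) and 1.04 (0.958 to 1.13). NOP10 had 861, 1012, 2011 and 1151 reads (79.4, 66.3, 131 and 141 FPKM), with ratios of 0.835 (0.762 to 0.916) and 1.08 (1.004 to 1.16). The PLC interval was below 1 for DKC1 and GAR1, held 1 for NHP2 and was just above 1 for NOP10. With TMM scaling the PLC ratios of NHP2 and NOP10 fell on the other side of 1.

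Among the nucleolar chaperones, NPM1 (nucleophosmin) had the highest FPKM of all members in every library, and NCL (nucleolin) came next in Huh7 cells. NPM1 had 30053, 40150, 33628 and 15267 reads (367, 349, 290.1 and 248 FPKM), with ratios of 0.949 (0.935 to 0.964) in Huh7 and 0.857 (0.8402 to 0.873) in PLC cells. NCL had 30339, 41286, 23586 and 13518 reads (208, 201, 114 and 124 FPKM), with ratios of 0.967 (0.953 to 0.981) and 1.08 (1.06 to 1.104), and with TMM scaling its PLC ratio was 0.995. LYAR, a nucleolar zinc finger protein, had the highest PLC ratio of the 45, with 1711, 2102, 1041 and 739 reads (34.7, 30.3, 14.9 and 19.98 FPKM) and ratios of 0.873 (0.819 to 0.931) and 1.34 (1.22 to 1.47). NOLC1, a chaperone of snoRNPs, had 5166, 7621, 4497 and 2258 reads (60.9, 63.8, 37.4 and 35.4 FPKM), with ratios of 1.05 (1.01 to 1.09) and 0.947 (0.9002 to 0.997). TCOF1 (treacle), a cofactor of ribosomal DNA transcription, had ratios of 1.09 (1.04 to 1.14) and 0.955 (0.897 to 1.02).

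The processing factors were the largest groups, with 15 small and 13 large subunit factors among the 45 members. Among genes with FPKM over 5 in both PLC libraries, 9.36% were under the lower threshold and 48.3% had a ratio below 1. Of the 15 small subunit factors, 5 were under the lower threshold in PLC cells and 14 had a ratio below 1, with a median ratio of 0.733. IMP3, which with IMP4 joins the U3 particle to the precursor, was the exception with 429, 569, 616 and 424 reads (7.82, 7.37, 7.93 and 10.3 FPKM) and ratios of 0.943 (0.8299 to 1.07) in Huh7 and 1.29 (1.14 to 1.47) in PLC cells. IMP4 went the other way in PLC cells, at 0.8198 (0.775 to 0.866). SNX33, on the opposite strand, shares 795 of the 2565 exon bases of IMP3, and how strand was handled in counting is not stated. In all, 21 members share exon bases with another gene, 4 of them with one on the same strand. On the opposite strand, TSR1 shares 1146 of 4802 with SRR, NOP14 737 of 3559 with NOP14-AS1 and NHP2 414 of 1434 with RMND5B. The same limit holds for their ratios. TSR1, a factor of late small subunit maturation, had the lowest Huh7 ratio of all members, with 2049, 2331, 3143 and 1388 reads (19.96, 16.1, 21.6 and 18.01 FPKM) and ratios of 0.809 (0.761 to 0.858) and 0.834 (0.782 to 0.888). UTP15, which takes part in transcription and processing of the precursor, had the next lowest, with 1245, 1441, 2302 and 822 reads (9.21, 7.57, 12.02 and 8.099 FPKM) and ratios of 0.824 (0.762 to 0.888) and 0.676 (0.621 to 0.7298). Of 35 other small subunit factors, 3 were higher and 10 lower in PLC cells, with a median ratio of 0.752.

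Of 12 large subunit factors that passed the FPKM filter, 3 were under the lower threshold in PLC cells, beside 17% of all genes that passed it. The median ratio of all 13 was 0.748. GNL3 (nucleostemin), a nucleolar GTPase, had 1430, 2261, 8193 and 3459 reads (20.7, 23.2, 83.6 and 66.6 FPKM), with ratios of 1.12 (1.05 to 1.201) in Huh7 and 0.797 (0.765 to 0.829) in PLC cells. GRWD1, a histone-binding protein of large subunit assembly, had the second highest Huh7 ratio, with 1826, 3128, 3115 and 1546 reads (15.2, 18.5, 18.3 and 17.1 FPKM) and ratios of 1.22 (1.15 to 1.29) and 0.937 (0.8804 to 0.996). MRTO4, an assembly factor of the ribosomal stalk, had 1216, 1848, 2655 and 1086 reads (22.3, 24.03, 34.3 and 26.5 FPKM), with ratios of 1.08 (1.004 to 1.16) and 0.772 (0.718 to 0.828). These 3 genes had intervals on opposite sides of 1 in the lines. NOP2, a methyltransferase of 28S ribosomal RNA, was the only member that failed the FPKM filter in both lines, with 21, 41, 47 and 14 reads, and its ratios of 1.26 (0.801 to 2.47) and 0.664 (0.286 to 1.04) had intervals that held 1. Another annotated gene on the same strand, AC006064.6, shares 2550 of the 4687 exon bases of NOP2 and had 0 reads in all libraries, so this low count may not be the level of NOP2. Of 44 other large subunit factors, 1 was higher and 9 lower in PLC cells, with a median ratio of 0.852.

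The ribosomal proteins, the protein components of the finished particle, had a PLC median near 1. Of 79 cytosolic ribosomal protein genes, 4 were higher and 1 lower in PLC cells, with a median ratio of 1.03 that became 0.947 with TMM scaling. In Huh7 cells 0 passed the thresholds, with a median ratio of 0.9499. Of the other pathway genes on the 3 lists, 0 were past the thresholds in both lines with the same sign. MYC was, with 3463, 3078, 3909 and 1128 reads (35.3, 22.3, 28.2 and 15.3 FPKM) and ratios of 0.633 (0.601 to 0.663) in Huh7 and 0.546 (0.509 to 0.582) in PLC cells. The fit over both lines gave MYC a log2 fold change of -0.85 (SE 0.22), with an adjusted p of 0.144 in edgeR. MYC was thus lower at 25 mM in both lines, whereas the members were shifted in PLC cells, and its part in the members' levels was not tested.

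Whether both lines shared a glucose change was examined with edgeR's quasi-likelihood test on all 23217 genes that passed its filter, with the line as a block. Of 45 members, 0 passed an adjusted p of 0.05, beside 0.379% of all genes, and 5 had an unadjusted p under 0.05. Of the 5543 genes with FPKM over 5 in all 4 libraries, 596 had an unadjusted p under 0.05. The count of 5 therefore does not set the members apart. RRP12 came first, with a log2 fold change of -0.80 (SE 0.27) and an edgeR adjusted p of 0.324. It was followed by NOP58 (-0.71), RRP9 (-0.68), RRN3 (-0.68) and DDX21 (-0.48). The count of members that passed was also 0 with DESeq2, which had 2 members with an unadjusted p under 0.05, and with limma-voom, which had 6. Shares of all genes with an unadjusted p under 0.05 in these fits are not given here. The fit has 1 residual degree of freedom for each gene and treats the lines as replicates of the glucose change, so a change in one line counts as spread.

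The lines themselves differed in the level of 15 members by the same edgeR fit, with glucose as the block. Higher in PLC cells were 9 of the 45 members, beside 21.1% of all genes, and lower were 6, beside 21.8%. Neither share of the members was above that of all genes, so these counts do not set the members apart. GNL3 had the largest difference, with a log2 fold change of 1.77, SE 0.23, adjusted p = 4.2e-05. RRN3 (1.27, SE 0.28, adjusted p = 0.00279) and IMP4 (1.252, SE 0.23, adjusted p = 0.000682) followed. The other members higher in PLC cells were NAT10 (0.96, SE 0.31, adjusted p = 0.0232), NOP10, PES1, RRP9 (0.80, SE 0.28, adjusted p = 0.037), DKC1 and RRS1. Lower in PLC cells were NOP56 (-1.254, SE 0.21, adjusted p = 0.000288), BRIX1 (-1.19, SE 0.23, adjusted p = 0.000869), a factor of large subunit processing, UTP20 (-0.99, SE 0.21, adjusted p = 0.0018), a scaffold of the small subunit processome, LYAR, NCL and NOLC1. The calls of NAT10 and RRP9 were lost in 3 of the 6 alternative fits, among them DESeq2, and that of RRS1 in 2. For members with a low PLC ratio the fold between the lines is given at each glucose concentration. The FPKM of PLC over that of Huh7 cells was 3.54 for RRN3 at 5 mM and 1.63 at 25 mM, 3.15 and 1.18 for NAT10, and 2.36 and 1.26 for RRP9. The FPKM was highest in the PLC library at 5 mM for 27 of the 45 members and lowest in the PLC library at 25 mM for 16. The matching shares of all genes are not given here, so these counts cannot be read as particular to the members. The PLC library at 25 mM had the fewest reads of the 4, and the fewest reads of a member other than NOP2 in any library were 424.

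**Figure D4:**
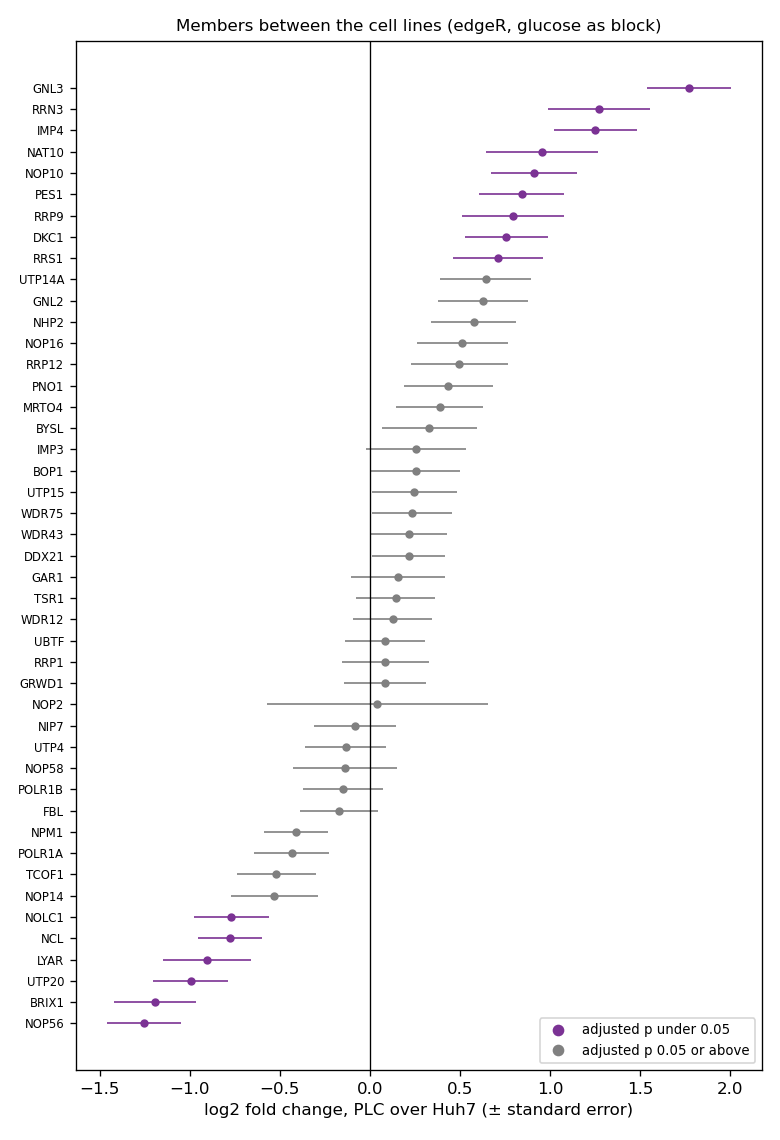
log2 fold change of PLC over Huh7 cells (points) with its standard error (bars) for the 45 members from the edgeR fit with glucose as the block, in purple where the adjusted p was under 0.05. The purple points are 9 members right of 0, led by GNL3 at 1.77, and 6 left of 0, led by NOP56 at -1.254.

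The promoter windows of the members often held the E-box CACGTG, which reads the same on both strands. RefSeq windows on GRCh38.p14, from 250 bases before to 50 after a start, were matched for 39 members, with 48 windows. NOP58, NOLC1, TCOF1, RRP12, BOP1 and RRS1 had no entry. CACGTG stood in a window of 20 of the 39 members (51.3%), beside 7.26% of all 35116 windows and 11.95% of the 11462 genes with a window and FPKM over 0.5 in at least 1 library. Of 76 other pathway genes with a window 26.3% had it, and of 63 ribosomal protein genes 6.35%. Other motifs were searched on both strands. The ETS motif CCGGAA stood in 48.7% of the members and 32.5% of the same expressed genes. The CCAAT box CCAAT stood in 43.6% and 43.2%. The TATA box TATAAA stood in 2.56% of the members and 9.82% of the expressed genes, that is in 1 member. Of the 22 E-boxes, 18 began within 50 bases of the start. A match is a run of letters and does not show binding.

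The windows around the E-box are shown for the 7 members under the lower PLC threshold that had one and for LYAR and NOP10, which had one and a PLC ratio above 1. Each is read on the strand of the gene, 5′ to 3′, on GRCh38.p14, with the E-box in capitals, and its first base is counted from the RefSeq start, with negative positions upstream.
NAT10, chr11:34105602-34105631, + strand: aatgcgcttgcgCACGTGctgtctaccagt
RRP9, chr3:51941892-51941921, - strand: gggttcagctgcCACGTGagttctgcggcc
GNL2, chr1:37595917-37595946, - strand: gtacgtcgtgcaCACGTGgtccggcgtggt
NOP14, chr4:2963374-2963403, - strand: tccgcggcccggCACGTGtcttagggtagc
UTP14A, chrX:129905914-129905940, + strand: accttgggcCACGTGgaaaccaggggc
PES1, chr22:30591880-30591909, - strand: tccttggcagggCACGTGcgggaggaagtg
DDX21, chr10:68956604-68956633, + strand: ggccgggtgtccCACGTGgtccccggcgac
LYAR, chr4:4290068-4290097, - strand: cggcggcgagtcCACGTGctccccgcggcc
NOP10, chr15:34343130-34343159, - strand: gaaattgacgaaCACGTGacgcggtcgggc
The E-box begins at -15 in NAT10, -5 in RRP9 and -31 in DDX21, and in RRP9 it spans the start. It begins at position 4 in GNL2, 16 in NOP14 and 14 in PES1, inside the transcribed part. UTP14A has it at -241 and LYAR at -64. NOP10 has another E-box at -170 beside the one shown at -11. RRN3, at 0.451 in PLC cells, had a window with no CACGTG.

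In PLC cells the 20 members with CACGTG had a median ratio of 0.742, from 0.434 to 1.34, and 7 of them were under the lower threshold. The 19 members with a window but without CACGTG had a median of 0.907, from 0.451 to 1.29, and 1 was under it. NOP58, RRP12 and BOP1 were also under the threshold but had no window, so they are in neither group. In Huh7 cells the medians of the members with and without CACGTG were 0.986 and 0.956. The other pathway genes had PLC medians of 0.755 with the E-box (20 genes) and 0.884 without it (56 genes). The ribosomal protein genes went the other way, with PLC medians of 1.11 with it (4 genes) and 1.04 without it (59 genes). Over all genes with a window and FPKM over 5 in all 4 libraries the PLC medians were 0.969 with it (634 genes) and 1.02 without it (3829 genes). In Huh7 cells the medians of the same genes with and without it were 0.99 and 1.04. Those of the other pathway genes were 0.980 and 1.01, and those of the ribosomal protein genes 0.895 and 0.949. Lower medians with the E-box were thus not confined to PLC cells. The ranges of the members with and without the E-box overlap, and these values are a description without a test.

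Small RNAs lie within 9 members, 26 in all, and their reads were few. The 4 small RNAs within NOP58 had 124, 176, 110 and 39 reads together, a ratio of 1.01 in Huh7 and 0.669 in PLC cells. For GNL3, whose ratio was 0.797 in PLC cells, its 4 small RNAs had 36, 51, 92 and 49 reads and ratios of 1.007 and 1.005 in Huh7 and PLC cells. The small RNAs within NCL, TSR1 and WDR43 had PLC ratios of 1.195, 1.451 and 1.339, where these genes themselves had 1.08, 0.834 and 0.752. All 26 together had a PLC ratio of 0.9501. The 6 small RNAs of NOP56 and the 3 of DKC1 had 0 reads in all libraries.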

How the data were processed

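RNA was extracted by the authors with TRIzol, ribosomal RNA was removed and directional libraries were built. The deposited values are raw counts of reads for each gene, and the submitters' processing notes name HISAT2, featureCounts and hg38; versions, annotation release and strand setting are not given in the sources used here. Each line and glucose concentration had 1 library. The table had 59657 lines, of which 5, a broken entry, were left out.

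FPKM was computed here from the count, the gene length of the table and the library total, so it is not the authors' own FPKM. Ratios had 0.1 added to both FPKM values, and the thresholds were FPKM over 0.5 in at least 1 library and a ratio over 1.5 or under 0.67. Intervals are exact 95% Clopper-Pearson intervals of the count ratio, for counting error only. Counts of all genes were tested with edgeR 4.0.16 (quasi-likelihood, TMM, filterByExpr, Benjamini-Hochberg over 23217 genes), and DESeq2 1.42.0 and limma 3.58.1 were alternatives. The methods were tested on simulated data. For edgeR the simulated counts had less spread than these data, no difference between the lines and the same changes in both. That test therefore does not show how the fit performs on data like these. Promoter windows came from RefSeq.

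Every member could be named. Reads in all libraries were given for the 3 highest and the 3 lowest ratios of each line, members past the thresholds, RNA polymerase I and snoRNP core members, and members with intervals on opposite sides of 1, besides which a few others were given in full. Members, lists and motifs were chosen with earlier results of these data known.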

Additional observations from a re-analysis of the deposited data

Results flagged for a closer look

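For 8 members the counting intervals of the 25/5 mM ratio lay on opposite sides of 1 in Huh7 and PLC cells. These differences were not tested. Among genes with FPKM over 5 in both libraries of the line, the interval lay below 1 for 25.6% in Huh7 and 37.2% in PLC cells. It lay above 1 for 38.2% and 39.6%. The share of all genes with opposite intervals is not given here, so the count of 8 cannot be read as particular to the members. NAT10 had a ratio of 1.15 in Huh7 and 0.434 in PLC cells. GNL3 had 1.12 and 0.797. GRWD1 had 1.22 and 0.937. MRTO4 had 1.08 and 0.772. NOLC1 had 1.05 and 0.947. In the other direction, LYAR had 0.873 in Huh7 and 1.34 in PLC cells, NOP10 had 0.835 and 1.08, and NCL had 0.967 and 1.08. With TMM scaling, and also with DESeq2 size factors, the intervals of LYAR, NAT10, GNL3 and GRWD1, 4 of the 8, stayed on opposite sides of 1.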

How the results depend on the processing

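No member passed the thresholds in Huh7 cells under any alternative tried. In PLC cells the main count of 11 became 5 with a ratio over 2 or under 0.5 and 25 (3 higher, 22 lower) with a ratio under 0.8 or over its inverse. Between these last 2 limits lay 19 of 45 members, beside 54.1% of the genes with FPKM over 5 in both PLC libraries. Shares of all genes called are given only for the main rule and TMM scaling, so the other counts have no background beside them. It was 16, all lower, with TMM scaling and with DESeq2 size factors, 12 without the FPKM filter, and 10 with 1 added to FPKM or, added after seeing the data, with the trend over gene length or exon GC content removed. The median log2 ratio in PLC cells was -0.45 with TMM scaling and -0.44 with DESeq2 size factors. TMM moved the log2 ratios by about -0.04 in Huh7 and -0.12 in PLC cells, less at very low FPKM. The PLC ratios of NCL, NOP10, NHP2, BRIX1, RRP1 and NIP7, 6 members, then fell below 1. The shared change had 0 members called under each alternative. The difference between the lines had 12 to 17 calls. NAT10 and RRP9 lost the call with at least 10 counts in every library, without the glucose block and with DESeq2, and RRS1 with the last 2. No direction of a called value reversed. The fit for the shared change pairs 25 with 5 mM within each line, and without that block 0 members had an unadjusted p under 0.05, beside 5 with it. With 1 library per condition no replicate could be left out. The PLC library at 25 mM had the fewest reads, and the counting intervals do not cover the spread between cultures.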
